A study of Homo sapiens with 36 samples.

Results

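The mitotic cyclins and their kinase were taken as every probe set that the array annotation gives to CCNA1, CCNA2, CCNB1, CCNB2, CCNF or CDK1. This yielded 10 probe sets for 6 genes, of 11963 genes named alone by a probe set and 22215 probe sets tested, and all 10 entered every comparison because no filter on low signal was applied. CDK1 had 3 probe sets, CCNA2 and CCNF had 2 each, and CCNA1, CCNB1 and CCNB2 had 1 each. The brightest probe set of a gene stands for it below unless another is named.

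The cells were U2OS ER-HA-E2F1, a human osteosarcoma line that carries E2F1 fused to an estrogen receptor domain and an HA tag, so that 4-hydroxytamoxifen (OHT) brings the factor into the nucleus. In the NFYB siRNA arm, cells received siRNA against NFYB from Ambion or from Dharmacon, NFYB being the B subunit of the CCAAT-binding factor NF-Y, and in the control siRNA arm a Dharmacon or a Sigma-Aldrich negative control siRNA. All cells were serum starved for 24 h beginning 18 h after transfection and were then kept for 0, 4 or 8 h in serum-free medium with 80 nM OHT. Each of the 12 conditions had 3 biological replicates, which gave 36 arrays, 6 for each arm and time. Where the siRNAs of an arm were pooled, these 6 arrays held 2 siRNAs. The p-values of that fit therefore rest on the spread between siRNAs and between cultures together. In the fit of 12 groups they rest on the spread between separate cultures as the labels name them. The fusion protein is foreign to the line, and whether the line is 1 clone is not given in the sources used here. No array was without OHT at 4 h or 8 h, so effects of E2F1, of OHT itself and of longer starvation cannot be told apart in the comparisons over time. RNA was hybridised to Affymetrix human genome arrays, and a value is a MAS5 signal, a linear brightness that was scaled to a trimmed mean of 500 on each array.

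NFYB itself (218127_at) had signals of 74.1 to 187 on the 6 NFYB siRNA arrays at 8 h, against 579 to 717 on the 6 control siRNA arrays, and the arms did not overlap at any time. The mesenchymal markers VIM, SPARC and COL1A1 were bright on all arrays, with medians of 16000, 6940 and 1750, whereas COL1A2 and RUNX2 lay low, with medians of 22.3 and 15.1. Of the markers of other cell types, KRT18 and KRT8 were bright, with medians of 7450 and 904, KRT19 and CDH1 were dim at 0.989 and 10.8, and the summed signal of 3 leukocyte markers stayed under 109 on every array. The summed signal of 5 epithelial markers ran from 6310 to 11700 in NFYB siRNA cells at 8 h, against 5950 to 8810 in control siRNA cells, with overlap, and its part in the results was not tested. Bulk RNA cannot tell fewer cells in G2 or mitosis from less message in each cell.

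Progression through G2 and mitosis is driven by CDK1, a kinase that is active only when bound to an A- or B-type cyclin. Cyclin A2 acts from S phase into early mitosis, cyclins B1 and B2 carry cells into and through mitosis, and the anaphase-promoting complex then destroys them. Cyclin A1 is known mainly from the germ line, and cyclin F is not a kinase activator but the substrate-binding part of an SCF ubiquitin ligase. Messages of these genes accumulate late in the cell cycle, and the promoters of CCNB1, CCNB2, CCNA2 and CDK1 are textbook examples of CCAAT boxes bound by NF-Y.

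The RefSeq promoter windows (GRCh38.p14) run from 250 bases before to 50 bases after a transcript start. This was the RefSeq gene start except for CCNA1 and the downstream CDK1 window, whose starts lie inside the gene. Windows are shown for 4 genes because the number and spacing of CCAAT boxes differ among them. Capitals mark CCAAT, read as ATTGG on the other strand, and the cell cycle homology region (CHR), searched as TTTGAA or TTCGAA on both strands (TTTGAA reads TTCAAA on the other).
CCNB1, chr5:69166900-69167199, plus strand: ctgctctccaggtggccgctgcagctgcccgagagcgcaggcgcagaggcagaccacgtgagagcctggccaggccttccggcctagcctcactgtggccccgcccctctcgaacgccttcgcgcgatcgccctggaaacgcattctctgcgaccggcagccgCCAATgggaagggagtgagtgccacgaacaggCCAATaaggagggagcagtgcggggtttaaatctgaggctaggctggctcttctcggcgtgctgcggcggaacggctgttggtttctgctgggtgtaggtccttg
CCNB2, chr15:59104896-59105195, plus strand: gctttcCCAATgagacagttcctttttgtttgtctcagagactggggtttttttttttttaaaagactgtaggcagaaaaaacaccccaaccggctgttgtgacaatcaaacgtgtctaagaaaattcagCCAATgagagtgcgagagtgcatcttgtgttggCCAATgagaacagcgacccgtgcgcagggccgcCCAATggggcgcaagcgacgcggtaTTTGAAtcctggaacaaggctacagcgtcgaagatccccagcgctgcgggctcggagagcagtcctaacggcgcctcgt
CCNA2, chr4:121823834-121824133, minus strand: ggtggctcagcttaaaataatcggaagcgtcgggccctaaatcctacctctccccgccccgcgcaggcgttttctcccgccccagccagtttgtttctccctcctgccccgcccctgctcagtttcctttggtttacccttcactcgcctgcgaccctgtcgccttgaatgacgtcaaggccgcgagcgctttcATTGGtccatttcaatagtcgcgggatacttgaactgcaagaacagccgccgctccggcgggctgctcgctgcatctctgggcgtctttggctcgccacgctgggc
CDK1, downstream start, chr10:60778228-60778527, plus strand: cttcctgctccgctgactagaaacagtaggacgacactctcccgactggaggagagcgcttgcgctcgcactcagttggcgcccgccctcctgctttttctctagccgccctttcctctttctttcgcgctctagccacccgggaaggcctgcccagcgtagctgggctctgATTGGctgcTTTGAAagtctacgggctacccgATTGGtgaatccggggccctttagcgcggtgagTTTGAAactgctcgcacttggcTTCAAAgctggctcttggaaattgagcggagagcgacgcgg

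CCNB1 had 2 CCAAT boxes, at -87 and -55, which are 32 bases apart. CCNB2 had 4, and the 3 nearest its start lay at -120, -87 and -54, each 33 bases from the next, followed by a CHR at -29. CDK1 had 2 at -78 and -46 before its downstream start, again 32 bases apart and in the other orientation, with 3 CHR matches and the E2F core TTGGCGC, which its upstream window shares. CCNA2 had 1 CCAAT box, at -56, in the other orientation. The CCNA1 window (chr13:36431705-36432004, plus strand) held neither motif. It lies wholly inside the RefSeq gene, which begins at 36431517, so the bases before that gene start were not searched. Among all 35116 RefSeq windows of this length, 34.6% held at least 1 CCAAT, 10.8% at least 2 and 0.991% at least 4, while 16.4% held a CHR and 3.04% the letters TTGGCGC. The E2F core TTCCCGC and TATAAA were in none of the 6 windows of CCNB1, CCNB2, CCNA2, CDK1 and CCNA1, against 6.55% and 11.5% of all windows. TTGGCGC can share letters with ATTGG, and these matches are letters in a window, not binding sites.

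With the siRNAs of each arm pooled, the B-type cyclins were the only members called lower with NFYB knockdown. CCNB2 was lower at all 3 times and CCNB1 at 8 h, and no probe set of CCNA1, CCNA2, CCNF or CDK1 passed the test at any time. At 0 h 1 of 10 probe sets was called lower (CCNB2), against 2% of all probe sets. At 4 h 1 of 10 was called lower (CCNB2), against 1.45%, and at 8 h 2 of 10 (CCNB1 and CCNB2), against 2.46%. None of the 10 was called higher at any time, against 1.58%, 1.48% and 2.18% of all probe sets at 0, 4 and 8 h, and at an unadjusted p under 0.05 there was 1 such probe set, CCNF 204826_at at 8 h. Calls are those of limma where p, adjusted over all probe sets tested, was under 0.05.

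CCNB1 encodes cyclin B1 and had a single probe set. At 8 h its signal on the NFYB siRNA arrays was 2423 at the lowest, 2821 at the median and 3254 at the highest, against 3383, 4030 and 4323 on the control siRNA arrays. Every NFYB siRNA array lay below every control siRNA array. The log2 fold change was -0.46 ± 0.074 (SE, n = 6 arrays per arm from 2 siRNAs, limma adjusted p = 9.15e-05), which is 1.37-fold lower. At 4 h the NFYB siRNA arrays ran from 3369 through 3912 to 4053, against 4085, 4563 and 4860 in control siRNA cells. The arms did not overlap here either, yet the change of -0.23 ± 0.074 did not pass (adjusted p = 0.0866). At 0 h the signals were 4730, 5530 and 6120 in NFYB siRNA cells, against 5333, 5764 and 6186 in control siRNA cells. These overlapped, and the change was -0.091 ± 0.074 (adjusted p = 0.619).

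CCNB2, which encodes the other somatic B-type cyclin, differed before any OHT was added. At 0 h the NFYB siRNA arrays had 3062, 3252 and 3641 at the lowest, median and highest, against 3768, 4138 and 4413 on the control siRNA arrays. The arms did not overlap, and the log2 fold change was -0.31 ± 0.069 (limma adjusted p = 0.00615). At 4 h the signals were 2523, 2624 and 3155 in NFYB siRNA cells, against 2768, 3335 and 3617 in control siRNA cells. Of the 6 NFYB siRNA arrays 5 lay below all control siRNA arrays, and the change was -0.28 ± 0.069 (adjusted p = 0.018). At 8 h the NFYB siRNA arrays had 1925, 2144 and 2398, against 2595, 2949 and 3183 in control siRNA cells. The arms were separate again, with a change of -0.44 ± 0.069 (adjusted p = 6.9e-05), or 1.36-fold lower.

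The study had listed both B-type cyclins among the probe sets it chose on these same arrays for change with knockdown at 8 h, so their calls at 8 h are not independent evidence of the direction. The calls of CCNB2 at 0 h and 4 h were lost when any 1 of the 3 replicate numbers was left out. Without a replicate number its change stayed between -0.32 and -0.30 at 0 h and between -0.30 and -0.26 at 4 h. The call of CCNB2 was also lost with the Ambion NFYB siRNA alone at both times (-0.30 and -0.23, adjusted p = 0.0531 and 0.227), and with the Dharmacon control siRNA alone its 4 h change was -0.17 (0.228). At 4 h the call was lost as well with siRNA as a random block (0.057), with only the groups compared (0.0847) and by the methods' t-test (0.159), which is run per probe set on linear signal and is adjusted here over all probe sets. The calls of both genes at 8 h remained under all 16 alternatives to the fit, with changes of -0.53 to -0.35 for CCNB2 and -0.57 to -0.35 for CCNB1. Arms that did not overlap, with NFYB siRNA lower, were seen for CCNB2 at 0 h, CCNB1 at 4 h and both at 8 h, against 1.45%, 1.17% and 1.82% of all probe sets.

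**Figure D1:**
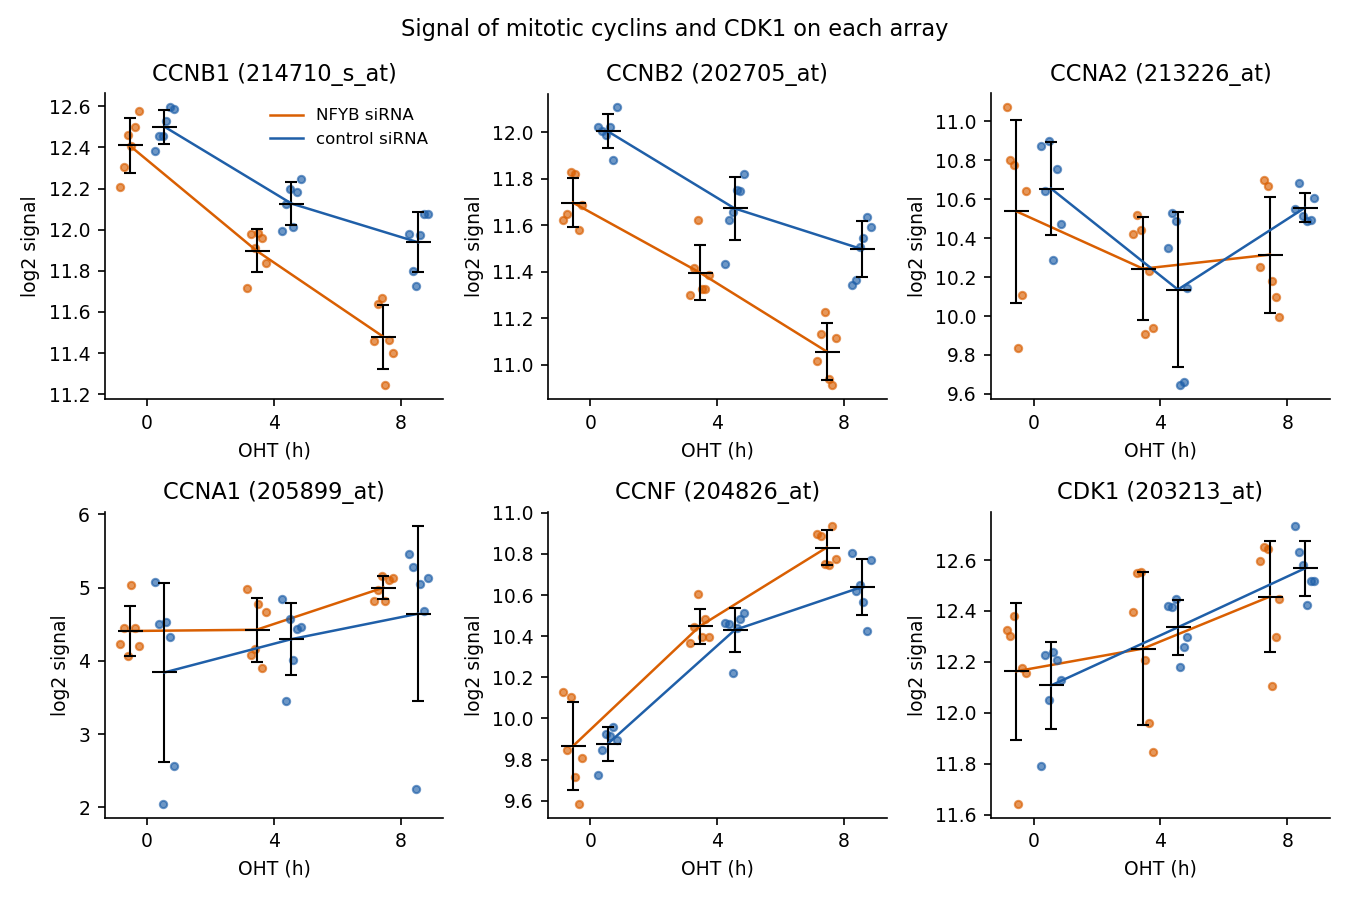
Log2 MAS5 signal of the brightest probe set of each gene at 0, 4 and 8 h of OHT, with NFYB siRNA (orange) left of control siRNA (blue) at each time. Points are the 6 arrays of an arm, black marks their mean and SD, and lines join the means. CCNB1 and CCNB2 fell over time in both arms and lay lower with NFYB siRNA at 8 h, and CCNF rose in both arms. CCNA1 was dim and scattered most in control siRNA cells at 0 and 8 h.

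**Figure D2:**
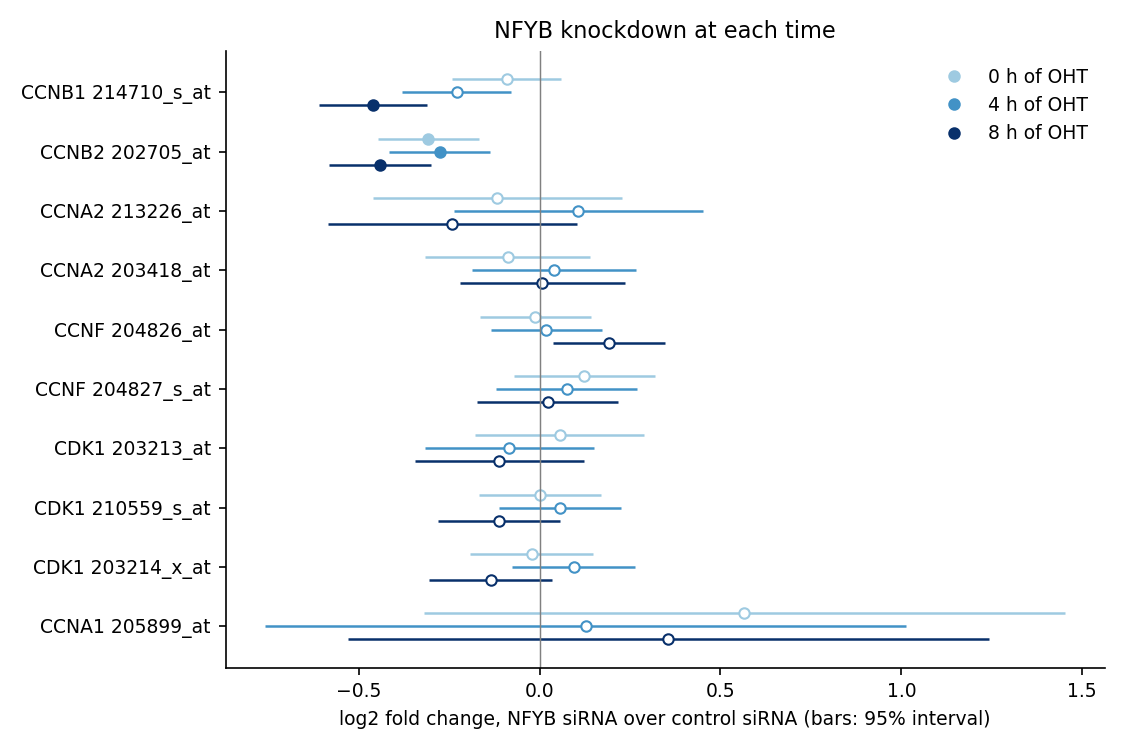
Log2 fold change of NFYB siRNA over control siRNA for the 10 probe sets at 0, 4 and 8 h of OHT, with 95% intervals from limma. Filled points passed an adjusted p of 0.05: CCNB2 at all 3 times and CCNB1 at 8 h.

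For the other members the intervals set how large a change could have been missed. CDK1 (203213_at), the kinase itself, changed by -0.11 at 8 h with a 95% interval of -0.34 to 0.12, and its other probe sets 203214_x_at and 210559_s_at by -0.14 and -0.11, with intervals of -0.31 to 0.035 and -0.28 to 0.058. CCNA2 changed by -0.24 on 213226_at (-0.59 to 0.10) and by 0.0078 on 203418_at (-0.22 to 0.24). CCNF was 0.19 higher on 204826_at (0.038 to 0.35, adjusted p = 0.155) and 0.022 higher on 204827_s_at (-0.17 to 0.22). CCNA1 (205899_at) was dim and scattered. At 8 h its signals were 28.2, 32.9 and 35.8 in NFYB siRNA cells and 4.78, 34.0 and 44.2 in control siRNA cells, and the interval ran from -0.53 to 1.24. Its geometric mean signal of 21.7 was at percentile 28.8 of all probe sets.

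Each NFYB siRNA was next set against both control siRNAs, in a fit of 12 groups of 3 arrays. At 8 h CCNB1 had signals of 2817, 3186 and 3254 with the Ambion siRNA and 2423, 2825 and 2705 with the Dharmacon siRNA against NFYB, while the Dharmacon control gave 4036, 3563 and 3383 and the Sigma-Aldrich control 4024, 4323 and 4316. Both NFYB siRNAs lowered it, by -0.35 ± 0.072 (Ambion, limma adjusted p = 0.00154) and -0.57 ± 0.072 (Dharmacon, 6.21e-07). CCNB2 at 8 h had 2074, 2248 and 2398 with the Ambion siRNA and 1960, 1925 and 2215 with the Dharmacon siRNA, against 2595, 2638 and 2911 with the Dharmacon control and 2987, 3183 and 3085 with the Sigma-Aldrich control. The changes were -0.37 ± 0.071 (Ambion, 0.00065) and -0.51 ± 0.071 (Dharmacon, 2.9e-06). All 6 values of each gene with an NFYB siRNA were again below all 6 with a control siRNA.

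At 0 h CCNB2 had signals of 3151, 3210 and 3641 with the Ambion and 3616, 3062 and 3294 with the Dharmacon siRNA against NFYB, against 4166, 4114 and 4060 with the Dharmacon control and 4162, 3768 and 4413 with the Sigma-Aldrich control. Every array with an NFYB siRNA lay below every control array. CCNB2 was lower here by nearly the same amount with either NFYB siRNA, -0.30 with Ambion (adjusted p = 0.00511) and -0.31 with Dharmacon (0.00222). At 4 h CCNB2 changed by -0.23 with Ambion (0.0537) and -0.33 with Dharmacon (0.0013), and CCNB1 by -0.26 with Ambion (0.0246) and -0.20 with Dharmacon (0.0641). At 0 h CCNB1 changed by -0.18 with Ambion (0.155) and by -0.005 with Dharmacon (0.98). A difference between the NFYB siRNAs at 8 h was called for neither gene, although for CCNB1 the unadjusted limma p was 0.0128. The Ambion minus Dharmacon difference was 0.22 for CCNB1 (95% interval 0.050 to 0.39, adjusted p = 0.0999) and 0.14 for CCNB2 (-0.026 to 0.31, adjusted p = 0.343). The message of NFYB was itself higher with the Ambion than the Dharmacon siRNA at 8 h, by 0.80 (adjusted p = 0.00732). Between the control siRNAs, Sigma-Aldrich minus Dharmacon was 0.21 for CCNB1 and 0.19 for CCNB2 at 8 h, with adjusted p of 0.102 and 0.146.

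On 1 of its 3 probe sets, 203213_at, CDK1 differed between the NFYB siRNAs at all times. On 203213_at at 8 h the Ambion siRNA gave 6184, 6438 and 6399 and the Dharmacon siRNA 4407, 5034 and 5578, against 6813, 6341 and 6126 with the Dharmacon control and 5493, 5858 and 5868 with the Sigma-Aldrich control. The Dharmacon NFYB siRNA lowered this probe set at 4 h and 8 h (-0.33 and -0.28, limma adjusted p = 0.014 and 0.0333), and the Ambion minus Dharmacon difference was 0.34, 0.49 and 0.35 at 0, 4 and 8 h, called at each time. At 0 h the arrays had 5137, 5046 and 5325 with Ambion and 3197, 4625 and 4561 with Dharmacon. The weight of the lowest array in the 0 h call (adjusted p = 0.0406) was not tested. On 210559_s_at the Dharmacon NFYB siRNA changed CDK1 by -0.032 at 8 h (adjusted p = 0.862). At 0 h this probe set had 2116, 2274 and 2409 with Ambion and 2952, 2802 and 2683 with Dharmacon, so that its Ambion minus Dharmacon difference was -0.31 (adjusted p = 0.0215), opposite in sign to that of 203213_at. Over the 12 condition means, 203214_x_at and 210559_s_at correlated at r = 0.98, whereas 203213_at correlated with them at 0.482 and 0.525.

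CCNA2 also depended on the siRNA. On 213226_at at 8 h it had 1221, 1663 and 1626 with the Ambion and 1161, 1095 and 1020 with the Dharmacon siRNA against NFYB, against 1501, 1643 and 1462 with the Dharmacon control and 1437, 1443 and 1559 with the Sigma-Aldrich control. The 3 Dharmacon NFYB arrays lay below every other array of that time. The Dharmacon NFYB siRNA lowered this probe set by -0.46 at 0 h and -0.47 at 8 h (adjusted p = 0.0137 and 0.0113), while the Ambion siRNA gave 0.23 and -0.016 (0.37 and 0.976). The control siRNAs differed from each other on 213226_at as well at 4 h, where Sigma-Aldrich minus Dharmacon was -0.64 (adjusted p = 0.00292). On the other CCNA2 probe set, 203418_at, the Dharmacon NFYB siRNA changed the signal by -0.083 at 8 h (adjusted p = 0.713). Ambion and Dharmacon NFYB siRNAs differed in 4 of 10 member probe sets at 0 h, 2 at 4 h and 1 at 8 h, against 8.28%, 7.94% and 8.72% of all probe sets. Set against both controls, the Ambion siRNA gave 1, 1 and 2 called probe sets of 10 at 0, 4 and 8 h (background 7.06%, 5.82% and 7.4%) and the Dharmacon siRNA 2, 2 and 4 (13.1%, 13% and 16%). Between the control siRNAs limma called 0, 1 and 0 of 10 (13.9%, 13.4% and 12.5%), and 0, 2 and 4 had an unadjusted p under 0.05. These percentages are for adjusted calls. The share of all probe sets at an unadjusted threshold is not given, here or for other comparisons.

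**Figure D3:**
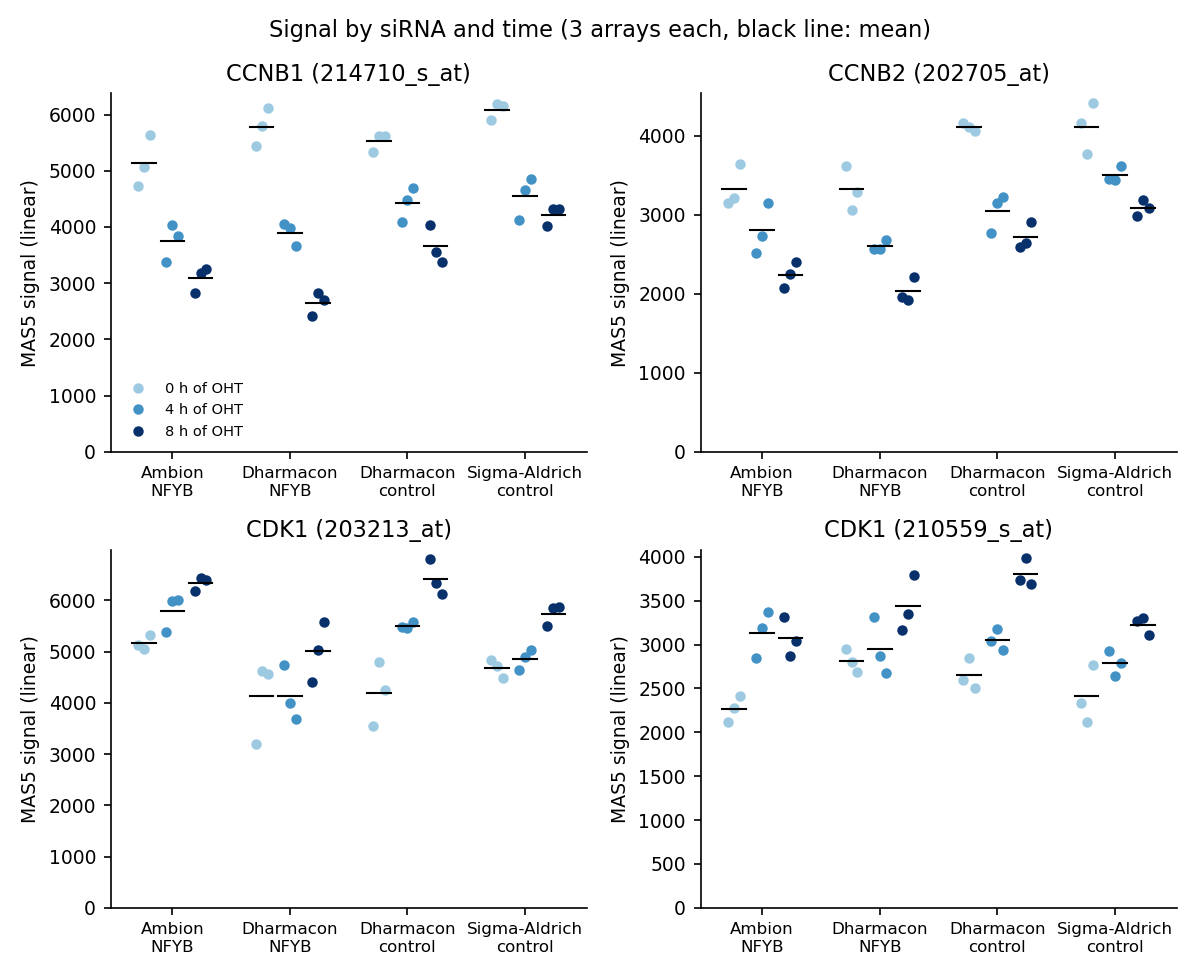
MAS5 signal on a linear scale for CCNB1, CCNB2 and the CDK1 probe sets 203213_at and 210559_s_at with each of the 4 siRNAs, NFYB siRNAs on the left. Points are the 3 arrays at 0 (light), 4 and 8 h (dark) of OHT, and black lines are their means. Both NFYB siRNAs lay below both control siRNAs for CCNB1 and CCNB2 at 8 h, whereas CDK1 203213_at had its lowest means at 4 h and 8 h with the Dharmacon NFYB siRNA.

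With OHT the members moved in opposite directions. In control siRNA cells at 8 h, both B-type cyclins and 1 of the CCNA2 probe sets fell, while both CCNF and all 3 CDK1 probe sets rose. Thus 8 of 10 probe sets were called, 3 lower and 5 higher, but the background was high, with 49.9% of all probe sets called, 29.6% lower and 20.3% higher. The median log2 change of the 10 was 0.45, beside -0.10 for all probe sets. This median counts probe sets, not genes, and the 5 called higher belong to only 2 genes, CCNF and CDK1. In NFYB siRNA cells the same 8 probe sets were called in the same directions, against a background of 47.9%, and the median of the 10 was 0.31 beside -0.15.

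CCNB1 fell in both arms. The 8 h and 0 h signals given above did not overlap in either arm, and the log2 change was -0.93 ± 0.074 in NFYB siRNA cells (limma adjusted p = 1.53e-13) and -0.56 ± 0.074 in control siRNA cells (3.1e-08). Such separation was common, with 19.6% of all probe sets lower at 8 h without overlap in each arm. CCNB2 changed by -0.64 ± 0.069 in NFYB siRNA cells (4.29e-10) and -0.51 ± 0.069 in control siRNA cells (7.2e-08). Most of the fall in control siRNA cells was in place by 4 h, at -0.37 for CCNB1 and -0.33 for CCNB2, and the further change to 8 h, -0.19 and -0.17, was not called (0.0744 and 0.0798), although both were called after quantile normalization, with 12 groups and with siRNA as a random block. In NFYB siRNA cells the change between 4 h and 8 h was -0.42 for CCNB1 (6.76e-05) and -0.34 for CCNB2 (0.000462). Whether this change differed between the arms was not tested.

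CCNA2 (203418_at) had 757, 838 and 1014 at 8 h, against 868, 1199 and 1374 at 0 h, in control siRNA cells, with overlap and a change of -0.42 ± 0.11 (adjusted p = 0.00164). In NFYB siRNA cells the change was -0.33 ± 0.11 (0.0145). The other CCNA2 probe set, 213226_at, dipped at 4 h in control siRNA cells by -0.52 ± 0.17 (0.0129) and stood at -0.099 at 8 h (0.676).

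CCNF, the ubiquitin ligase subunit, rose most among the members that were called. Its signal in NFYB siRNA cells was 1719, 1821 and 1960 at 8 h, against 768, 910 and 1119 at 0 h, and in control siRNA cells 1377, 1588 and 1787, against 846, 958 and 994. In each arm all 8 h arrays lay above all 0 h arrays. That held for 13.7% of all probe sets with NFYB siRNA and 14.1% with control siRNA. The 4 h arrays stood between, at 1322, 1370 and 1555 with NFYB siRNA and 1193, 1410 and 1461 with control siRNA, a rise of 0.58 (limma adjusted p = 5.17e-08) and 0.55 (1.4e-07) over 0 h. The change was 0.97 ± 0.076 in NFYB siRNA cells (1.2e-13) and 0.76 ± 0.076 in control siRNA cells (5.4e-11). The dimmer probe set 204827_s_at gave 0.87 ± 0.096 and 0.97 ± 0.096 in these arms.

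CDK1 rose less. On 203213_at it had 4407, 5881 and 6438 at 8 h, against 3197, 4835 and 5325 at 0 h, in NFYB siRNA cells, and 5493, 5997 and 6813, against 3543, 4605 and 4833, in control siRNA cells. The times overlapped with NFYB siRNA and were separate with control siRNA, where 14.1% of all probe sets rose without overlap. The change was 0.29 ± 0.12 (adjusted p = 0.0334) in NFYB siRNA cells and 0.46 ± 0.12 (0.000897) in control siRNA cells. The call in NFYB siRNA cells was lost by the methods' t-test (0.1), after quantile normalization (0.0524), with only the groups compared (0.0622), with the Dharmacon NFYB siRNA alone (0.0761) and without any 1 replicate number (0.1 to 0.114). The other CDK1 probe sets rose by 0.32 and 0.36 with NFYB siRNA and by 0.43 and 0.48 with control siRNA, all called. By 4 h CDK1 had risen on 203214_x_at and 210559_s_at with NFYB siRNA (0.24 and 0.27, adjusted p = 0.0214 and 0.00992) and on 210559_s_at with control siRNA (0.21, 0.0401). CCNA1 stood 0.59 ± 0.44 higher with NFYB siRNA and 0.80 ± 0.44 higher with control siRNA at 8 h and was not called by limma (0.29 and 0.131). The methods' t-test on linear signal called it in NFYB siRNA cells, with a ratio of 1.48 (adjusted p = 0.0145). With the Sigma-Aldrich control siRNA alone, limma called CCNA1 in control siRNA cells at 1.14 (0.029). The 0 h arrays of that siRNA had signals of 23.05, 20.12 and 5.921, and the lowest 0 h array of the Dharmacon control had 4.127. At 8 h the lowest array of the Dharmacon control had 4.776. How far such very dim single arrays shaped the CCNA1 rises in control siRNA cells was not tested.

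At 4 h, 6 of 10 probe sets were called in NFYB siRNA cells, against 36.6% of all, and 7 of 10 in control siRNA cells, against 39.3%. From 4 h to 8 h 3 of 10 were called in each arm, against 16.5% with NFYB siRNA and 17.2% with control siRNA. These were CCNB1 and CCNB2 lower and CCNF (204826_at) higher with NFYB siRNA, and CCNF (204827_s_at) and CDK1 (203214_x_at and 210559_s_at) higher with control siRNA.

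**Figure D4:**
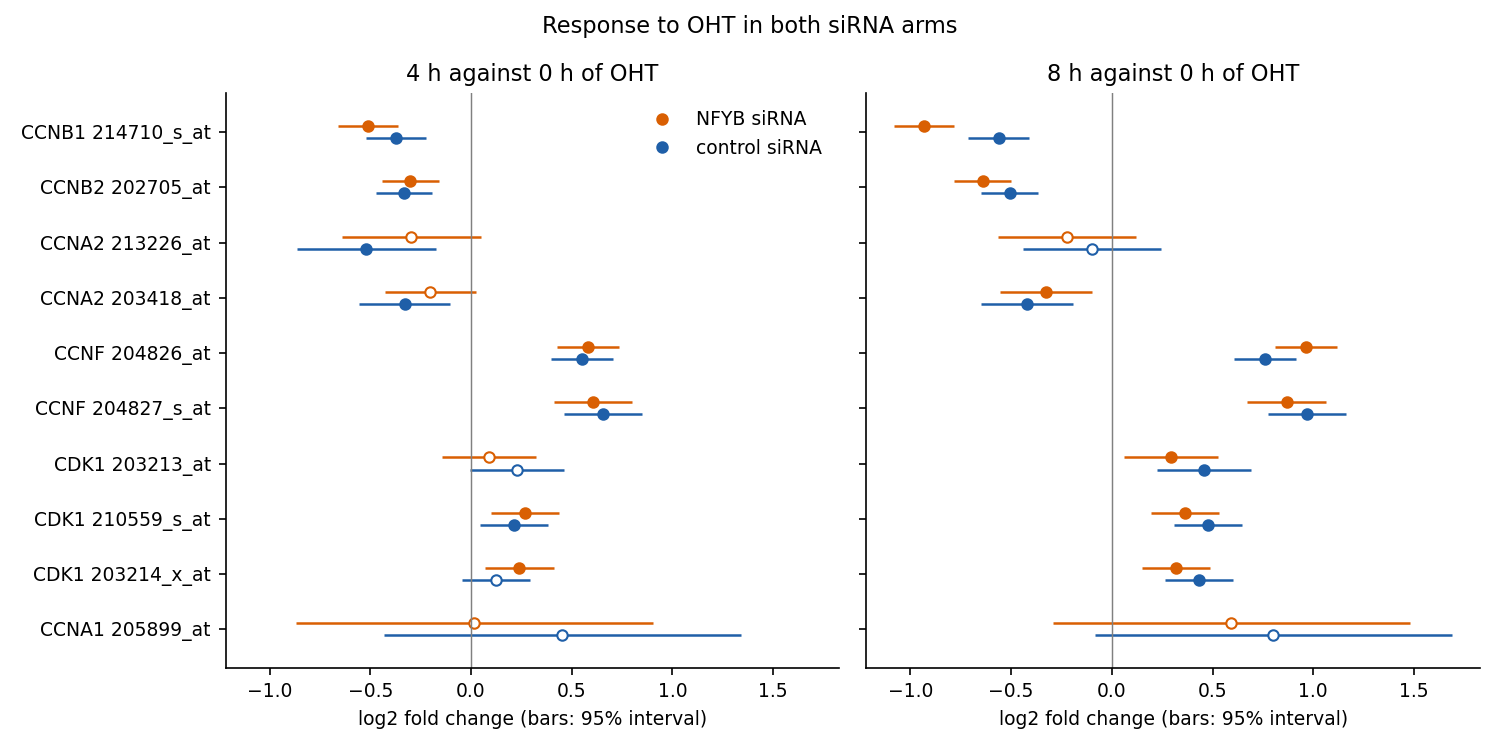
Log2 fold change at 4 h (left) and 8 h (right) of OHT against 0 h for the 10 probe sets, with NFYB siRNA (orange) above control siRNA (blue) and 95% intervals from limma. Filled points passed an adjusted p of 0.05. CCNB1 and CCNB2 fell and CCNF rose in both arms at both times.

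Whether the response to OHT itself differed between the arms was tested as a difference of differences. None of the 10 probe sets was called at 8 h by limma, against 0.203% of all, and 1 had an unadjusted p under 0.05. That was CCNB1, whose 8 h response was 0.37 lower on the log2 scale in NFYB siRNA than in control siRNA cells (-0.37 ± 0.10, 95% interval -0.58 to -0.16, adjusted p = 0.211). The call of CCNB1 depended on the fit. With 12 groups the adjusted p was 0.0157 and with the Dharmacon NFYB siRNA alone 0.0115, while over the other alternatives it lay between 0.0986 and 0.999. The highest was that with the Ambion siRNA alone, where the difference was -0.17. For CCNB2 the difference was -0.13 (-0.33 to 0.064, adjusted p = 0.827). At 4 h none was called, against 0.0135% of all, and none had an unadjusted p under 0.05. NFYB itself was not called by limma in this test at 8 h. Its differences were -0.93, -0.54 and -0.91 on 218127_at, 218128_at and 218129_s_at (adjusted p = 0.233, 0.706 and 0.603). A missing call here does not show that the responses were equal.

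The pattern over the 12 condition means, each the mean log2 signal of 3 arrays, joined the B-type cyclins: CCNB1 and CCNB2 correlated at r = 0.946, and CCNB1 and CCNF at -0.922. CDK1 (203213_at) correlated with its cyclin partners at -0.542 with CCNB1, -0.448 with CCNB2 and 0.317 with CCNA2 (213226_at). The other probe sets of CDK1 and CCNA2, which followed these only loosely, were not used here. These 12 points share the OHT times and siRNAs and are given without a test. Among the brighter probe sets of all other genes, the pattern of CCNB2 was most like those of NEK2 (0.973), a mitotic kinase of the centrosome, DOCK1 (0.967) and SS18 (0.967). CCNB1 was most like CLCN3 (0.982), CRBN (0.976) and KDM4A (0.974), and CCNF most like CARHSP1 (0.99), SAP130 (0.99) and OLFM1 (0.988). For CDK1 these were PPP3CA (0.928), OXR1 (0.927) and PHIP (0.925), and for CCNA2 GMFB (0.925), TRPS1 (0.92) and ATP11B (0.874). CCNA1 gave EXOSC9 (0.945), NCAPG (0.908) and DIAPH1 (0.903) from its dim signal.

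Genes that act on CDK1 and its cyclins were counted by list, 1 probe set per gene. Of 19 measured kinases, phosphatases and subunits of the CDK1 switch, 2 rose and 1 fell with knockdown at 8 h, with a median of 0.026 beside -0.029 for all probe sets, of which 2.18% were called higher and 2.46% lower. CDC25C, the phosphatase that removes inhibitory phosphate from CDK1, rose by 1.42 (limma adjusted p = 2.31e-12) and PLK1, a kinase of mitotic entry, by 0.63 (1.37e-06), whereas AURKA fell by 0.32 (0.0175). With OHT in control siRNA cells, 6 rose and 8 fell at 8 h, where 20.3% of all probe sets were called higher and 29.6% lower. CDKN1A and CDKN1B, inhibitors of cyclin-dependent kinases, rose by 1.63 and 1.75, and CCNH, the cyclin of the CDK-activating kinase, by 0.97. CDC25C and PLK1 were also among the genes the study chose on these same arrays for change with knockdown at 8 h. So were NEK2, NFYA, NFYC and CDK2, named below. Their knockdown calls at 8 h are therefore not independent evidence of the direction.

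Of 18 measured genes of cyclin destruction, 2 rose and none fell with knockdown at 8 h (all probe sets 2.18% and 2.46%), with a median of 0.07. These were CDC20, the activator of the anaphase-promoting complex, at 0.39 (0.0178), and the checkpoint kinase BUB1 at 0.26 (0.00516). With OHT in control siRNA cells 3 rose and 11 fell (all probe sets 20.3% and 29.6%), with a median of -0.54 beside -0.10 for all probe sets. CDC20 fell by 1.5, CDC16, a subunit of the complex, by 0.96 and BUB1 by 0.76.

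Of 30 late G2 and mitotic genes, 3 rose and 2 fell with knockdown at 8 h (all probe sets 2.18% and 2.46%), with a median of 0.083. CDKN3 rose by 0.50 (0.000166) and PTTG1, the securin, by 0.30 (0.000858), while NEK2 fell by 0.52 (0.000202). With OHT 6 rose, a share near the 20.3% of all probe sets, and 18 fell, beside 29.6%, with a median of -0.51, and CENPF, CDCA3 and AURKB fell by 1.12, 1.43 and 1.15.

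Of 12 measured genes that control transcription of G2 and mitotic genes, 2 rose and none fell with knockdown at 8 h (all probe sets 2.18% and 2.46%): NFYA by 0.94 (3.8e-09) and NFYC by 0.72 (1.3e-06), the partners of NFYB in NF-Y. With OHT 3 rose and 4 fell, shares near the 20.3% and 29.6% of all probe sets, among them TFDP1, a dimer partner of E2F factors, by 0.81 upward and LIN37 and NFYC, which fell by 0.97 and 0.53. Among 8 other cyclins and kinases, 1 fell with knockdown at 8 h, CDK2 by 0.26 (0.0464), and none rose. With OHT, 3 rose and 4 fell, beside the same 20.3% and 29.6%. The G1 cyclins CCNE2, CCNE1 and CCND3 rose by 3.27, 2.90 and 2.15, each more than any of the 6 members did.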

How the data were processed

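The data are 36 Affymetrix arrays of the U2OS ER-HA-E2F1 line. The deposited values are linear signal intensities from the MAS5 algorithm, which the authors ran in Expression Console (version not given in the sources used here). The scale was checked on the file: each array had a trimmed mean of 500 with 2% trimmed at each end, signals ran from 0.0308 to 37606, and array medians from 100.9 to 120.4. The file has no detection calls, so dimness was judged by mean signal alone, and the number of arrays limits the precision. Of 22277 probe sets, 62 control probe sets were left out.

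Signals were taken to log2 without an offset. A limma fit (version 3.58.1, R 4.3.3) held 6 groups, 1 per arm and time, of 6 arrays each, with the siRNAs of an arm pooled and variances moderated with a trend on mean signal. Comparisons of single siRNAs used 12 groups of 3 arrays. All tests were two-sided. The Benjamini-Hochberg adjustment ran over 22215 probe sets, and an adjusted p under 0.05 was called. The fit was tested on simulated data with known changes. All 6 members are named with every probe set, NFYB as the check of the knockdown, from each pathway list at most 3 genes with the smallest adjusted p for knockdown and for OHT at 8 h, and for likeness the 3 most correlated probe sets of other genes in the upper 60% by signal. Members and lists were chosen with earlier results of these data known. Promoter sequences came from RefSeq (GRCh38.p14), and motifs were counted as exact matches on both strands. The promoter window of CCNF is not reported here.

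Results were recomputed with 16 added to each signal, after quantile normalization, with the dimmest 40% of probe sets left out, without the variance trend, with only the groups of a comparison in the fit, with 12 groups, with a block for siRNA (random) or for replicate number, with 1 siRNA per arm, by the methods' t-test on linear signal, and without each replicate number in turn. Replicate numbers did not pair arrays: deviations of arrays with the same number correlated at medians of 0.014, 0.0036 and 0.0053.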

Additional observations from a re-analysis of the deposited data

Results flagged for a closer look

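Of 60 groups of 6 arrays, 5 held an array far from the others, and chance alone marks about 1 in 20 groups. CCNB2 was 3155 on Ambion NFYB siRNA replicate 3 at 4 h, above the nearest array at 2733, and this was the array that overlapped the control siRNA arrays. CDK1 (203213_at) was 3197 on Dharmacon NFYB siRNA replicate 1 at 0 h, below the nearest at 4561. On Dharmacon control siRNA replicate 3 at 4 h both CCNF probe sets were low, with 1193 on 204826_at (nearest 1388) and 203.2 on 204827_s_at (nearest 249.5). CCNA1 was 4.776 on Dharmacon control siRNA replicate 3 at 8 h, below the nearest at 25.66.

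Of 30 differences between the siRNAs against NFYB, 7 passed limma at an adjusted p under 0.05. Among all probe sets, 8.28%, 7.94% and 8.72% passed in this comparison at 0, 4 and 8 h. The 30 differences count each member probe set once per time, so they are not independent of each other. Ambion minus Dharmacon, on the log2 scale, was 0.5461 for CCNA2 (203418_at) at 4 h, 0.6886 for CCNA2 (213226_at) at 0 h, 0.3224 for CCNF (204826_at) at 0 h, and 0.3445, 0.4941 and 0.3472 for CDK1 (203213_at) at 0, 4 and 8 h. It was -0.3121 for CDK1 (210559_s_at) at 0 h. None of the 7 concerned CCNB1 or CCNB2.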

How the results depend on the processing

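Of 36 called values of member probe sets, under 512 alternatives in all, 0 changed sign, 448 kept their call and 64 lost it. The falls of CCNB1 and CCNB2 with knockdown at 8 h stayed called throughout. With knockdown at 0 h the count of probe sets called lower (1) was 0 with the Ambion NFYB siRNA alone and 0 to 0 without 1 replicate number. At 4 h it (1) was 0 with only the groups compared, siRNA as a random block, the Ambion NFYB siRNA alone, the Dharmacon control siRNA alone, the methods' t-test after Benjamini-Hochberg and without any replicate number, and 2 with 12 groups. At 8 h the count higher (0) was 1 with 12 groups, CCNF (204826_at, adjusted p = 0.0372). For OHT at 4 h in control siRNA cells the count lower (4) was 2 with either control siRNA alone and 2 to 4 without 1 replicate number. From 4 h to 8 h in control siRNA cells the count lower (0) was 2 with quantile normalization, 12 groups or a random block, 1 in the upper 60%, and 0 to 1 without 1 replicate number, and the count higher (3) was 6 with 12 groups, 5 with a random block, 1 with either control siRNA alone and 0 to 1 without 1 replicate number. For OHT at 4 h in NFYB siRNA cells the count lower (2) was 1 with the Ambion siRNA alone, and the count higher (4) was 2 with the Dharmacon siRNA alone or the methods' t-test and 2 to 3 without 1 replicate number. At 8 h the count higher (5) was 3 with the Dharmacon siRNA alone, and it was also 5 by the methods' t-test, with CCNA1 called in place of CDK1 203213_at. For the difference of the 8 h responses the count lower (0) was 1 with 12 groups or the Dharmacon NFYB siRNA alone, CCNB1 each time. Fewer arrays enter when a siRNA or a replicate number is left out, and otherwise the cause was not tested.

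Signs turned only for values that were not called. The difference of the 4 h responses of CCNB2 (0.031) was -0.017 with the Dharmacon NFYB siRNA alone and -0.072 with the Sigma-Aldrich control siRNA alone. For knockdown at 8 h, CDK1 203213_at (-0.11) was 0.063 with the Ambion siRNA alone, and CDK1 210559_s_at (-0.11) was 0.0079 with the Sigma-Aldrich control alone. CCNA2 203418_at (0.0078) was -0.083 with the Dharmacon NFYB siRNA alone, -0.013 with the Dharmacon control alone and -0.11 to 0.085 without 1 replicate number. CCNF 204827_s_at (0.022) was -0.022 with the Dharmacon NFYB siRNA alone, -0.036 with the Sigma-Aldrich control alone and -0.075 to 0.092 without 1 replicate number, and CCNA1 ran from -0.19 to 0.75. A further 48 uncalled values had 711 alternatives, of which 49 changed sign and 18 became called.

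The replicate number as a block changed no count of calls: with the block CCNB2 changed with knockdown at 8 h by -0.44 (adjusted p = 2.75e-05) and CCNB1 by -0.46 (6.41e-05). Quantile normalization left the median change of all probe sets with OHT at 8 h in control siRNA cells at -0.10. In NFYB siRNA cells this median moved from -0.15 to -0.10, and with knockdown at 8 h the median moved from -0.029 to 0.0032. In dim probe sets such as CCNA1 the intervals were wide.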
